A study of Mus musculus with 8 samples.

Results

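The interleukin 1 system and the inflammasome were described here through 10 genes: the cytokine genes Il1a, Il1b and Il18, the receptor antagonist gene Il1rn, the receptor genes Il1r1, Il1r2 and Il1rap, and the inflammasome genes Nlrp3, Casp1 and Casp4. They were chosen by name, and every probe set annotated to 1 of them was used, which gave 17 of the 45037 probe sets on the array and 10 of its 18193 genes. The RNA came from peritoneal macrophages of male C57BL6/J mice, drawn to the cavity by thioglycolate and kept by adherence, so all groups share this inflammatory stimulus. The 4 groups of 2 arrays were MR knockout cells (MR fl / fl, LysM cre) cultured for 24 h with 1 µM corticosterone, MR knockout cells without treatment, control cells (MR fl / fl, no Cre named) with corticosterone, and control cells without treatment. MR is the mineralocorticoid receptor, encoded by Nr3c2, and LysM Cre is active in myeloid cells, that is in macrophages and neutrophils, so other cells in the cultures keep an intact receptor. The labels call the replicates biological and the study says that each sample pooled experiments done in triplicate, so the p-values measure the spread between pooled samples. Corticosterone, the main glucocorticoid of mice, binds both the glucocorticoid receptor and MR, and the study asked what loss of MR does to the glucocorticoid response.

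Interleukin 1α and 1β signal through the receptor encoded by Il1r1 together with its partner Il1rap, while Il1rn encodes a secreted antagonist that occupies the receptor without signalling and Il1r2 a decoy receptor. Interleukin 1β and interleukin 18 are made as inactive precursors, which caspase 1 cuts once an inflammasome such as that of NLRP3 has assembled. Transcript levels therefore say nothing of how much active cytokine was released. Glucocorticoids are known to restrain this system in macrophages, through the glucocorticoid receptor acting on DNA and on NF-kB.

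One array limits what follows. Control untreated replicate 2 had a median correlation of 0.919 with the other arrays, against 0.994 to 0.995 for the other 7, and its 3′ control probe set for Actb exceeded the 5′ one by 2.18 log2 units, a gap that widens with RNA damage, against 0.41 to 0.62 elsewhere. Mesothelial and fibroblast markers averaged 8.09 log2 units on it, against 6.36 to 6.72 on the other 7. Results are therefore from 7 arrays, with the fit of all 8 beside them, and with 7 arrays the untreated control cells are represented by 1 array, which is taken to vary as the remaining groups do. All p-values come from limma, with Benjamini-Hochberg adjustment across the 45037 probe sets, and a probe set is called when its adjusted p is under 0.05. The labels were checked on known genes. Nr3c2 read 5.11 and 5.47 log2 units in MR knockout cells with corticosterone and 5.54 and 5.82 without, against 6.39 and 6.13 in control cells with corticosterone, and 6.39 without and 8.46 on the array that stands apart. It was lower in MR knockout than in control cells with corticosterone by a log2 difference of -0.97 (adjusted p = 0.0369), and by -0.71 without (adjusted p = 0.194); whether the deletion removes the sequence that its probe set measures was not checked. The glucocorticoid-induced Fkbp5, which encodes a receptor co-chaperone, was higher with hormone by 3.62 in MR knockout and by 3.86 in control cells. Macrophage markers averaged between 11.93 and 12.14 log2 units on the 7 arrays and 11.31 on the array that stands apart.

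The 250 bases before the RefSeq start of Il1rn and Il18, the 2 genes of the system whose probe sets changed with hormone, are shown because the receptors involved bind DNA. Capitals mark the glucocorticoid response element half-site AGAACA, searched on both strands. All coordinates are of GRCm38.p6, and each sequence reads 5′ to 3′ towards the start.
Il1rn start 1, chr2:24336610-24336859, plus strand: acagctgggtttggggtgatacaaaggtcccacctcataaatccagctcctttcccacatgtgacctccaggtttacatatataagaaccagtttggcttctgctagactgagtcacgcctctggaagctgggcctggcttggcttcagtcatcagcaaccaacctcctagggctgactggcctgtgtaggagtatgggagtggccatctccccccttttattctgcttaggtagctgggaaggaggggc
Il1rn start 2, chr2:24345041-24345290, plus strand: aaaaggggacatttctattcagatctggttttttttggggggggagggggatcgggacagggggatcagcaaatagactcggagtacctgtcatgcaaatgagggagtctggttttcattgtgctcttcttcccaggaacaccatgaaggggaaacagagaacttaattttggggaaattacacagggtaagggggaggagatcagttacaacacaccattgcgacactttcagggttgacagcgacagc
Il18 start 1, chr9:50554450-50554699, plus strand: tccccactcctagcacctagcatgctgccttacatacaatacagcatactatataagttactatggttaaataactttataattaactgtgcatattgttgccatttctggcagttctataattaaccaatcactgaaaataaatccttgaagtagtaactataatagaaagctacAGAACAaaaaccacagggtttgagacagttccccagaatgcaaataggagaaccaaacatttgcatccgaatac

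Both Il1rn windows hold no half-site, nor does the window of the other annotated start, which overlaps that of start 2. The Il18 window holds 1, from -74 to -69 relative to the start. Across the system, all 10 genes matched the table, with 15 starts, and 3 of the 15 windows held a half-site, the other two being Casp1 (-188 to -183) and the second start of Il1r1 (-131 to -126), against 16.1% of 32851 annotated starts. The full palindrome GNACANNNTGTNC was in 0 of 15 windows and in 0.387% of all starts. The AP-1 motif TGANTCA was found at Il1a (-12 to -6) and at the first start of Il1rn (-141 to -135), and in 6.75% of all starts. An NF-kB motif was found at 4 starts, 1 each of Il1r1 and Nlrp3 and both of Casp4, whose windows overlap, against 7.25% of all starts; matches within a Casp4 window also overlap each other. A match of letters is no evidence of binding, and a window of this length leaves out distant elements.

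With corticosterone, 4 of the 17 probe sets rose and 0 fell in MR knockout cells, and the same 4 rose and 0 fell in control cells. They were the 3 probe sets of Il1rn and the 1 of Il18, so 2 of 10 genes. Over the array, 4.33% of probe sets were called higher and 4.82% lower in MR knockout cells, and 3.19% higher and 3.6% lower in control cells. By the probe set with the highest mean of each gene, 5.2% of genes were called higher in MR knockout and 4.34% in control cells. The median difference over the 17 probe sets was -0.01 log2 units in MR knockout and 0.1 in control cells, against -0.01 and 0 over all probe sets. The other 13 probe sets, and with them 8 genes, did not pass in either genotype. Treated and untreated arrays did not overlap for 10 of the 17 in MR knockout and 15 of the 17 in control cells. In control cells this sets 2 arrays against 1. Absence of overlap alone therefore carries little weight below, and its share over all probe sets was not counted. With all 8 arrays 0 of the 17 passed in limma in either genotype, and in that fit 0.0577% and 0.0622% of all probe sets were called in either direction. At an unadjusted p under 0.05 that fit had 1 of the 17 in MR knockout and 4 in control cells. The share of all probe sets at that threshold was not counted in it.

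Markers of several cell types moved with hormone beside these genes, and a change in the number of cells of a type cannot be told apart here from a change in RNA per cell. Markers were counted by the probe set with the highest mean of each gene. Of all genes so counted, 12.5% were called in either direction in MR knockout and 9.56% in control cells. Of 8 B cell markers 7 fell in MR knockout and 7 in control cells, with medians of -1.38 and -1.09, and their mean level was 7.63 and 7.71 in MR knockout cells with corticosterone against 8.87 and 8.76 without, and 7.65 and 7.62 in control cells with corticosterone against 8.58 without. Of 11 T and NK cell markers 5 fell in each genotype and 1, Il7r, rose in MR knockout cells, with mean levels of 5.33 to 5.47 on the treated arrays and 6.23 to 6.37 on the untreated ones used. Neutrophil markers, of cells that also make interleukin 1, averaged 5.86 to 6.06 on the 7 arrays, with 2 of 12 higher and 2 lower in MR knockout cells and 2 higher and 1 lower in control cells. Mast cell and basophil markers, 3 of 10 higher and 1 lower in each genotype, had medians of 0.36 in MR knockout and 0.32 in control cells and mean levels of 5.75 to 5.93 on the treated arrays and 5.40 to 5.61 on the untreated ones used. Of 8 dendritic cell markers 2 rose and 2 fell in MR knockout cells, and 1 rose and 2 fell in control cells, with medians of -0.32 and -0.17 and mean levels of 5.72 to 5.97 on the treated arrays and 6.02 to 6.27 on the untreated ones used. Of 10 macrophage markers 4 rose and 2 fell in MR knockout cells, and 4 rose and 1 fell in control cells, with medians of 0.02 and 0.01. Their mean level was 12.11 to 12.14 on the treated arrays and 11.93 to 11.97 on the untreated ones used, without overlap and in the direction of Il1rn and Il18. With all 8 arrays 0 B cell markers were called in either genotype, and their median in control cells was -0.57. On the array that stands apart B cell markers averaged 7.83, and T and NK cell markers 6.09. Mast cell and basophil markers averaged 4.8 there, and dendritic cell markers 5.45, below the treated arrays. With all 8 arrays the control medians were -0.49 for T and NK cell, 0.41 for mast cell and basophil, and 0.04 for dendritic cell markers. The part of these shifts in the rises of Il1rn and Il18 was not tested.

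Il1rn was higher with corticosterone on every array of both genotypes. Its probe set 1423017_a_at read 9.52 and 9.61 log2 units in MR knockout cells with corticosterone, against 8.82 and 8.87 without. The control readings were 9.64 and 9.64 with corticosterone, against 8.66 on the untreated array used and 6.05 on the array that stands apart. The treated and untreated arrays did not overlap in either genotype. The rise was 1.64-fold in MR knockout cells (log2 difference 0.72, SE 0.06, adjusted p = 5.04e-05) and 1.98-fold in control cells (0.99, SE 0.07, adjusted p = 3.74e-05). With all 8 arrays the difference in control cells was 2.29, adjusted p = 0.447, and that in MR knockout cells was 0.72, adjusted p = 1.

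The other Il1rn probe sets moved the same way by less. Probe set 1425663_at read 10.81 and 10.84 in MR knockout cells with corticosterone, against 10.35 and 10.27 without, a rise of 1.43-fold (adjusted p = 5.67e-05). Control cells had 10.85 and 10.89 with corticosterone, against 10.15 without, a rise of 1.64-fold (adjusted p = 3.8e-05); the array that stands apart was at 8.80. Both genotypes separated fully by treatment. Probe set 1451798_at read 12.07 and 12.11 in MR knockout cells with corticosterone, against 11.76 and 11.83 without, a rise of 1.23-fold (adjusted p = 0.000352). Control cells had 12.09 and 12.09 with corticosterone, against 11.66 without, a rise of 1.34-fold (adjusted p = 0.000198), with 10.09 on the array that stands apart. The size of the rise thus differed between probe sets of 1 gene, although 1425663_at and 1451798_at are annotated to the same source sequence. In control cells the differences were 1.39 for 1425663_at and 1.21 for 1451798_at with all 8 arrays, adjusted p = 0.447 for both. The calls of 1451798_at did not hold when the variance was modelled without a trend on the level, with adjusted p = 0.0771 in MR knockout and 0.0707 in control cells.

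Il18, which encodes a cytokine that drives interferon γ production by lymphocytes, rose in both genotypes by similar amounts. It read 10.07 and 10.13 log2 units in MR knockout cells with corticosterone, against 9.58 and 9.41 without. Control cells gave 10.20 and 10.17 with corticosterone, against 9.53 without. On the array that stands apart Il18 was at 9.60, next to its replicate, unlike Il1rn. The rise was 1.52-fold in MR knockout cells (log2 difference 0.61, SE 0.06, adjusted p = 0.000208) and 1.58-fold in control cells (0.66, SE 0.08, adjusted p = 0.000661). In the fit of 8 arrays the differences were 0.61 (adjusted p = 0.442) and 0.62 (adjusted p = 0.336), so the calls were lost. Only the size in control cells could change, as the added array is of control cells.

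**Figure D1:**
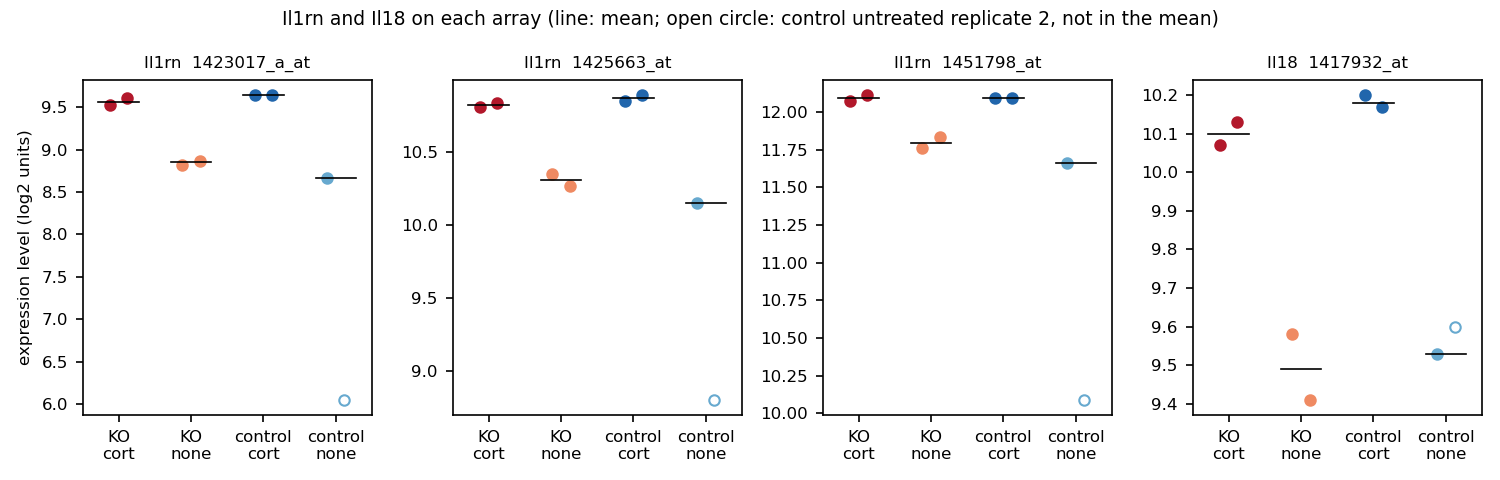
Levels of Il1rn (3 probe sets) and Il18 on each array, in log2 units, for MR knockout cells with corticosterone and without (none), then control cells with corticosterone and without. Points are arrays, lines are means of the arrays used, the open circle is control untreated replicate 2, and each panel has its own vertical range; in all 4 panels both treated arrays of a genotype lie above its untreated arrays.

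The genes of the agonists were not called. Il1a read 5.83 and 6.06 log2 units in MR knockout cells with corticosterone, against 6.35 and 6.24 without. Control cells gave 6.18 and 6.37 with corticosterone, against 6.53 without and 5.84 on the array that stands apart. On the 7 arrays the treated cells were lower without overlap in both genotypes, with log2 differences of -0.35 in MR knockout cells (SE 0.14, adjusted p = 0.171) and -0.26 in control cells (SE 0.17, adjusted p = 0.496); with all 8 arrays the value in control cells was 0.09.

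Il1b, the gene of interleukin 1β, which inflammatory signals induce, read 4.58 and 4.62 in MR knockout cells with corticosterone, against 4.73 and 5.29 without. Control levels of Il1b were 4.93 and 4.83 with corticosterone, against 5.13 without and 5.18 on the array that stands apart. The treated arrays lay below the untreated ones in both genotypes, but the untreated MR knockout replicates had an SD of 0.40. The log2 differences were -0.41 in MR knockout cells (SE 0.19, 95% interval -0.83 to 0.02, adjusted p = 0.266) and -0.25 in control cells (SE 0.23, interval -0.77 to 0.27, adjusted p = 0.669). Without MR knockout untreated replicate 1, which read 4.73, the value in MR knockout cells was -0.69 with an adjusted p of 0.0356, so the call rests on which replicate is kept. All its levels lay below the array median of 5.55 to 5.58, where RMA compresses differences.

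Among the receptors, no probe set was called. The signalling receptor Il1r1, by probe set 1448950_at, read 6.73 and 6.22 in MR knockout cells with corticosterone, against 6.32 and 6.30 without. In control cells it read 6.19 and 6.35 with corticosterone, against 5.91 without and 6.48 on the array that stands apart. The MR knockout groups overlapped, and the log2 differences were 0.16 (adjusted p = 0.677) and 0.36 (adjusted p = 0.409) in MR knockout and control cells. Its second probe set, 1459777_at, lay between 1.97 and 2.33 on the 7 arrays and gives little information.

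The decoy receptor Il1r2, which glucocorticoids are known to induce in some leukocytes, read 3.39 and 3.14 in MR knockout cells with corticosterone, against 3.85 and 3.34 without. Control levels of Il1r2 were 3.72 and 3.33 with corticosterone, against 3.49 without and 3.18 on the array that stands apart. The groups overlapped in both genotypes. The log2 differences were -0.32 (95% interval -0.77 to 0.12) in MR knockout and 0.03 (interval -0.51 to 0.58) in control cells, with adjusted p = 0.43 and 0.972. The intervals reach up to 0.12 and 0.58. All levels of Il1r2 lay below the array median of 5.55 to 5.58, where RMA compresses differences, so these intervals may not bound the change in transcript.

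Il1rap, the accessory chain of the receptor, has 5 probe sets, which disagreed. Probe set 1421844_at read 8.37 and 8.26 in MR knockout cells with corticosterone, against 8.10 and 8.04 without, and 8.42 and 8.47 in control cells with corticosterone, against 8.26 without and 7.41 on the array that stands apart. Neither genotype overlapped by treatment, and the log2 differences were 0.25 (SE 0.08, adjusted p = 0.0823) and 0.18 (SE 0.09, adjusted p = 0.363) in MR knockout and control cells. The first of them passed, at an adjusted p of 0.0483, when probe sets below the median level were left out. Probe set 1449585_at had 6.37 and 6.29 in MR knockout cells with corticosterone, against 6.34 and 5.49 without, a log2 difference of 0.42 (adjusted p = 0.391) that was 0.84 (adjusted p = 0.0158) without untreated replicate 1. In control cells 1449585_at had 6.36 and 6.0 with corticosterone, against 5.98 without and 4.46 on the array that stands apart, a difference of 0.20 (adjusted p = 0.823). The remaining probe sets had differences between -0.25 and 0.02 in MR knockout cells and between -0.19 and 0.52 in control cells, none called.

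The inflammasome genes showed small differences. Nlrp3, the sensor, read 7.87 and 7.84 log2 units in MR knockout cells with corticosterone, against 7.90 and 8.15 without, a log2 difference of -0.17 (adjusted p = 0.387). In control cells it read 7.70 and 7.74 with corticosterone, against 7.73 without, a difference of -0.01 (95% interval -0.28 to 0.25, adjusted p = 0.978). The array that stands apart was at 6.49, which made the difference 0.61 with all 8 arrays.

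Casp1, the protease that cuts both cytokine precursors, kept to a range of 11.53 to 11.73 on the 7 arrays. It read 11.55 and 11.58 in MR knockout cells with corticosterone, against 11.62 and 11.53 without, and 11.70 and 11.61 in control cells with corticosterone, against 11.73 without. The 95% intervals of the hormone difference were -0.10 to 0.08 in MR knockout and -0.19 to 0.03 in control cells. Casp4, which encodes the mouse caspase 11 that senses bacterial lipopolysaccharide inside the cell, read 9.37 and 9.40 in MR knockout cells with corticosterone, against 9.57 and 9.40 without. In control cells it read 9.40 and 9.40 with corticosterone, against 9.58 without. Its log2 differences were -0.10 (adjusted p = 0.486) and -0.18 (adjusted p = 0.263), neither called. On the array that stands apart Casp1 was at 11.06 and Casp4 at 8.98, below all others, so with 8 arrays the differences in control cells were 0.26 and 0.12.

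**Figure D2:**
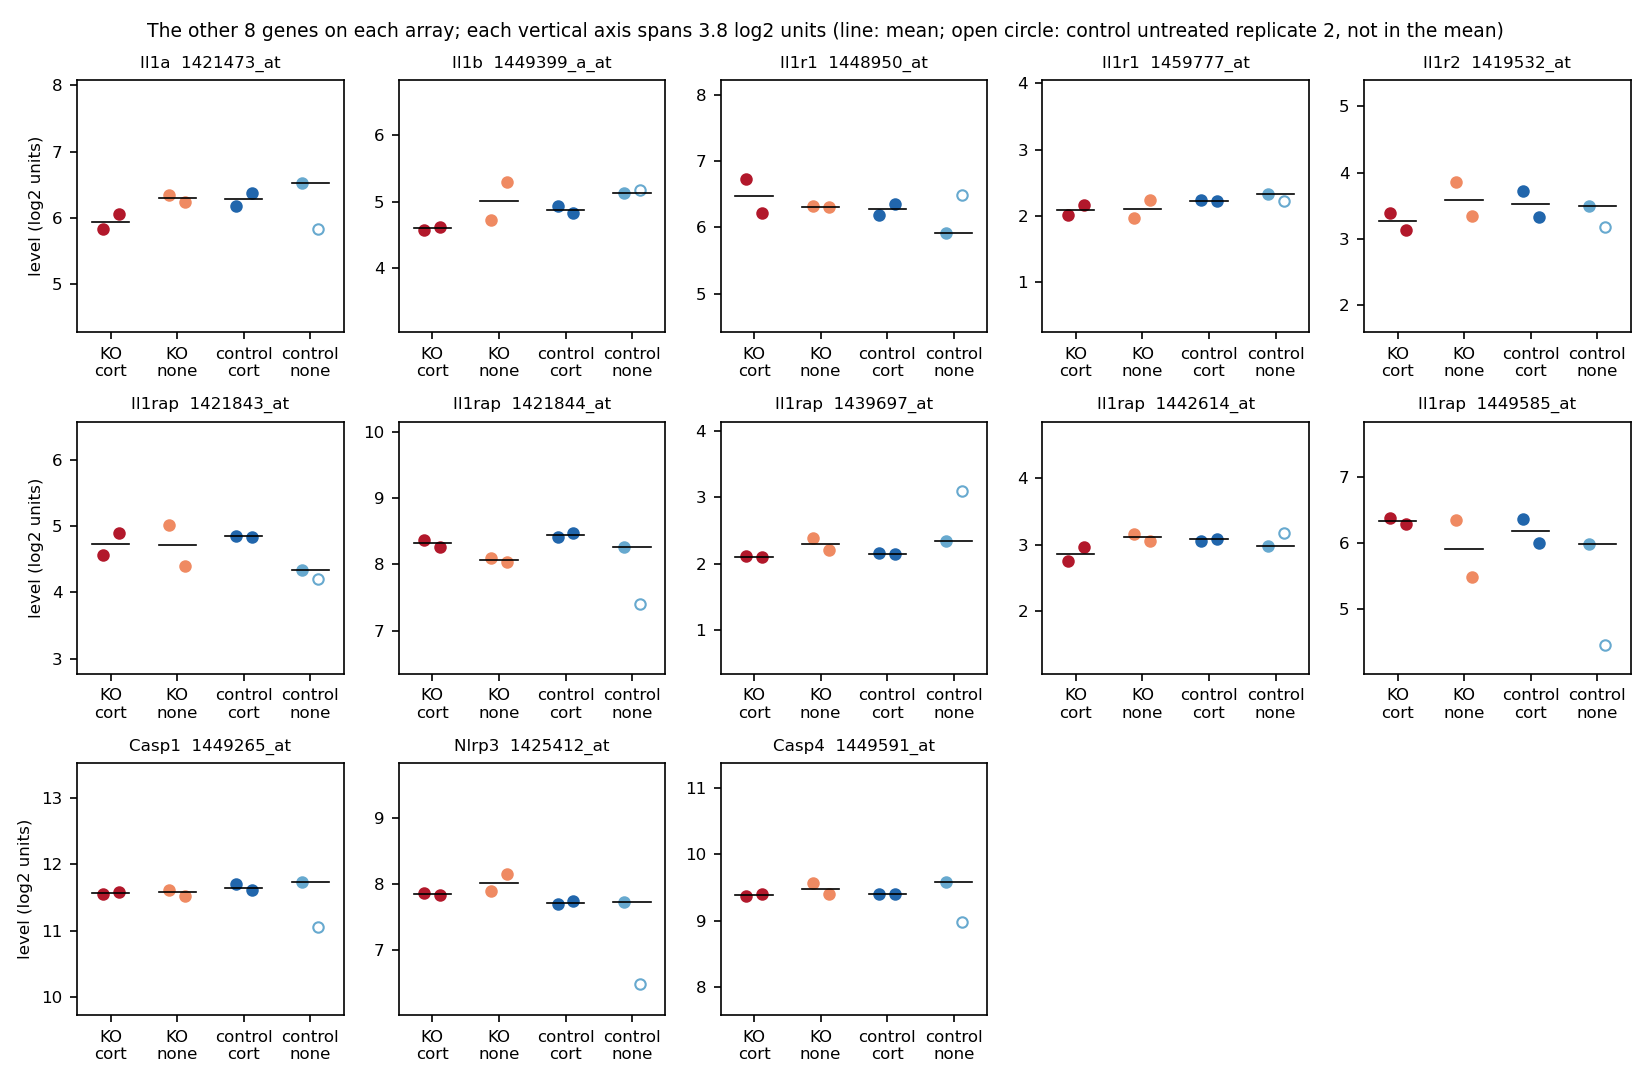
Levels of the other 8 genes (13 probe sets) on each array, in log2 units, in the same order of groups. Points are arrays, lines are means of the arrays used and open circles are control untreated replicate 2; no probe set was called with corticosterone, and Casp1 keeps to 11.53 to 11.73 on the 7 arrays used.

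**Figure D3:**
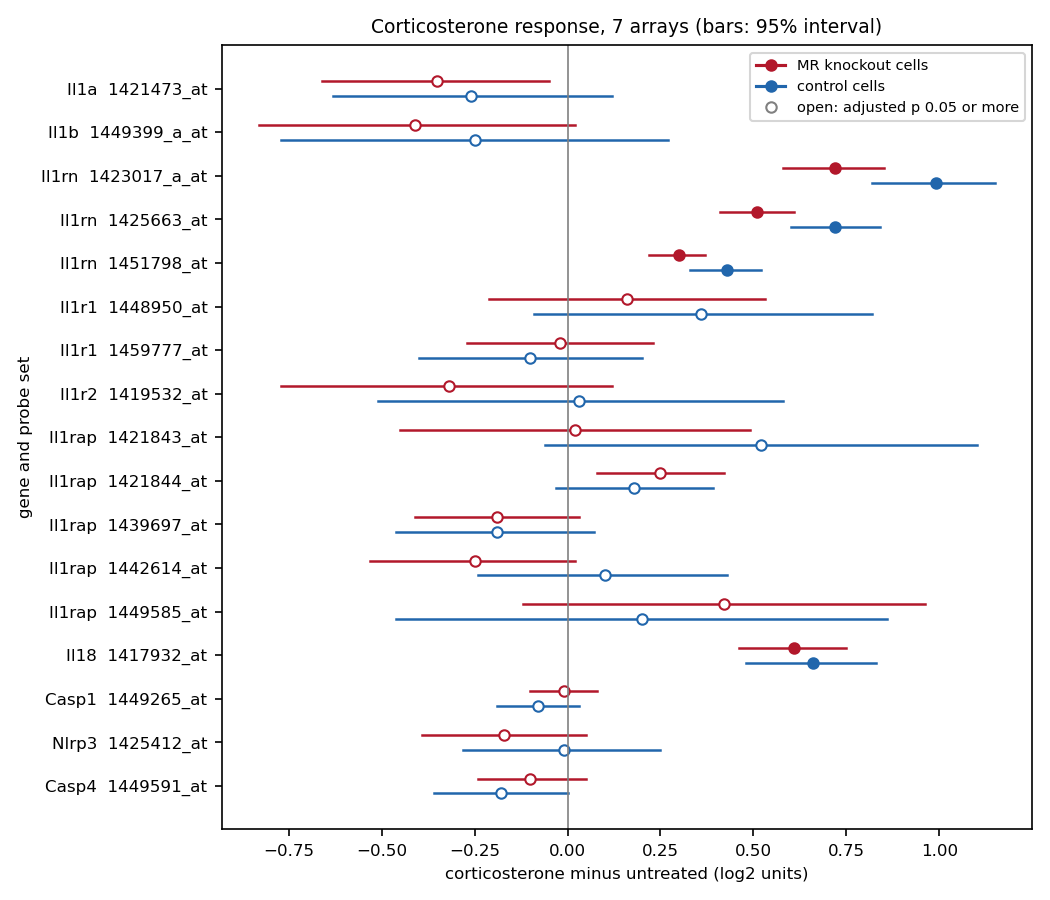
Corticosterone minus untreated in log2 units for the 17 probe sets in MR knockout and control cells, with 95% intervals from limma on 7 arrays. Filled points, the 3 Il1rn probe sets and Il18, were called in both genotypes, and all are positive.

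Between genotypes no probe set of the system passed. With corticosterone 0 of 17 were called between MR knockout and control cells, against 0.795% of all probe sets called. The unadjusted p in limma was under 0.05 for 1 of the 17, against 3616 of all 45037 probe sets. That 1 was Il1a, at 5.83 and 6.06 in MR knockout against 6.18 and 6.37 in control cells (log2 difference -0.33, SE 0.14, unadjusted p = 0.0354, adjusted p = 0.562). For treated cells the 95% intervals of the genotype difference were -0.22 to 0.05, -0.14 to 0.05 and -0.08 to 0.08 for the Il1rn probe sets in the order above, -0.23 to 0.06 for Il18, -0.18 to 0.01 for Casp1 and -0.16 to 0.13 for Casp4. Those of Il1b (-0.70 to 0.15), Il1r2 (-0.70 to 0.19) and Il1r1 (-0.17 to 0.57, 1448950_at) were wider.

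Without hormone 0 of 17 were called, against 0.977% of all probe sets called. The unadjusted p in limma was under 0.05 for 5 of the 17, against 5561 of all 45037 probe sets. The 5 were the 3 Il1rn probe sets, Casp1 and Nlrp3. Il1rn was higher in MR knockout than in control cells by log2 differences of 0.19, 0.16 and 0.13 (adjusted p = 0.331, 0.26 and 0.243 for 1423017_a_at, 1425663_at and 1451798_at). Nlrp3 differed by 0.29 (adjusted p = 0.362) and Casp1 by -0.16 (adjusted p = 0.231). All of these set 2 MR knockout arrays against the single untreated control array, and with the other untreated control array in its place the Il1rn differences were 2.79, 1.51 and 1.70, the Nlrp3 difference 1.53 and the Casp1 difference 0.51. The untreated genotype comparison is therefore not settled by these arrays.

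The test of whether the hormone response differed between genotypes called 0 of 17, against 0.00888% of all probe sets, that is 4 of 45037. At an unadjusted p under 0.05 in limma there were 3 of 17, against 2553 of all 45037 probe sets. The 3 were again Il1rn, whose response was smaller in MR knockout cells by log2 differences of -0.27 (95% interval -0.48 to -0.06), -0.20 (-0.36 to -0.05) and -0.13 (-0.25 to -0.01), with adjusted p = 0.869, 0.869 and 0.872. The 3 values rest on the same arrays and on the untreated levels just given. They were -1.57, -0.88 and -0.91 with all 8 arrays (adjusted p = 0.752 for each), and -2.87, -1.55 and -1.70 (adjusted p = 8.67e-08, 1.93e-07 and 7.24e-08) with control untreated replicate 2 in place of replicate 1. For Il18 the difference in response was -0.05 (interval -0.27 to 0.17, adjusted p = 0.979). With all 8 arrays 0 of 17 passed, and 0 had an unadjusted p under 0.05, in either genotype comparison or in the difference in response, and 0% of all probe sets were called in each.

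**Figure D4:**
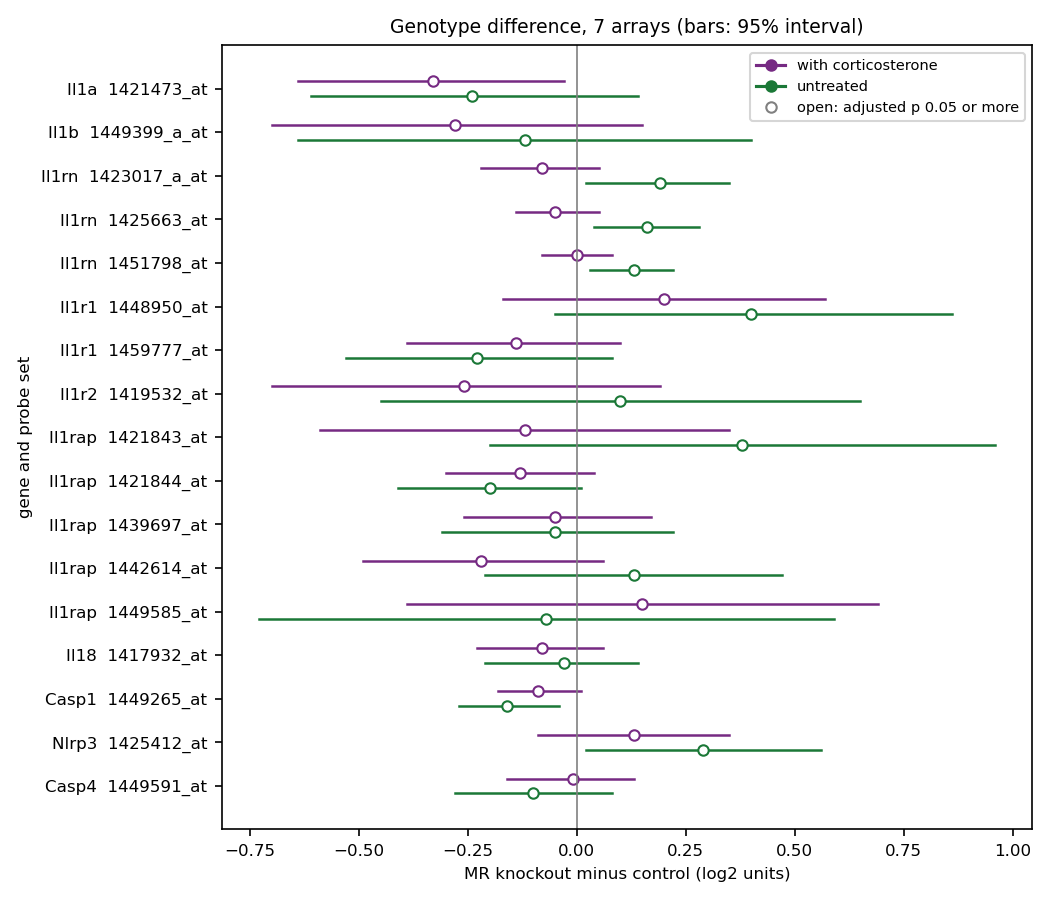
MR knockout minus control in log2 units for the 17 probe sets, with corticosterone and untreated, with 95% intervals from limma on 7 arrays. All points are open, as none was called, and the untreated Il1rn points (0.13 to 0.19) lie right of those with corticosterone (-0.08 to 0).

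Genes around the system were followed through 3 lists, counted by the probe set with the highest mean of each gene, against 12.5% of all genes called in either direction in MR knockout and 9.56% in control cells. Of 12 measured IL-1 family genes outside the 10, 2 rose and 2 fell with corticosterone in MR knockout cells, and 1 rose and 0 fell in control cells. The median difference of the list was -0.04 in MR knockout and -0.05 in control cells, against -0.02 and 0 over all genes. Most of the list is dim, with a mean level of 4.45 to 4.55 log2 units on the 7 arrays. Only 2 of the 12 genes lay above the median level of all probe sets. Il18bp, a secreted protein that binds and neutralises interleukin 18, rose in both genotypes alongside Il18 itself. It read 8.55 and 8.57 in MR knockout cells with corticosterone, against 7.80 and 7.82 without, and 8.41 and 8.37 in control cells with corticosterone, against 7.76 without and 6.08 on the array that stands apart. The log2 differences were 0.75 (SE 0.07, adjusted p = 0.000127) and 0.63 (SE 0.09, adjusted p = 0.00187). With all 8 arrays the second was 1.47 (adjusted p = 0.447), and the call was lost in both genotypes.

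A further 3 genes of the family, all receptor genes, were called in MR knockout cells. Il18r1, the ligand-binding chain of the interleukin 18 receptor, fell by 0.98 on the log2 scale (adjusted p = 0.0142), with 4.26 and 4.14 with corticosterone against 4.85 and 5.50 without. Il18rap, its accessory chain, rose by 0.55 (adjusted p = 0.0473) on one probe set and differed by -0.06 on the other. Il1rl2, the receptor for interleukin 36, fell by 0.36 (adjusted p = 0.00544). In control cells the same probe sets had log2 differences of -0.41, 0.23 and -0.28, with adjusted p = 0.462, 0.589 and 0.0596. These responses were not shown to differ between genotypes, as the adjusted p of the difference in response was 0.907, 0.937 and 0.963 for Il18r1, Il18rap and Il1rl2. The call of Il18r1 was lost without MR knockout untreated replicate 2 (-0.65, adjusted p = 0.057) or without either MR knockout array with corticosterone (-1.04 and -0.92, adjusted p = 0.0604 and 0.103). That of Il18rap was lost without MR knockout untreated replicate 2 or any 1 of the 4 arrays with corticosterone (0.45 to 0.62, adjusted p of 0.0908 to 0.221). Without the variance trend none of the 3 calls held (adjusted p = 0.0885, 0.0507 and 0.0525 for Il18r1, Il18rap and Il1rl2). Interleukin 18 receptor genes are also expressed by T and NK cells, whose markers fell with hormone as given above; the part of that fall in these values was not tested.

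Below the receptor, 2 of 21 measured signalling genes rose and 0 fell in MR knockout cells, and 3 rose and 0 fell in control cells, with a list median of 0 in both. Nfkbia, which encodes the NF-kB inhibitor IκBα and is induced both by glucocorticoids and by NF-kB itself, read 12.64 and 12.59 in MR knockout cells with corticosterone, against 12.40 and 12.39 without. In control cells it read 12.54 and 12.57 with corticosterone, against 12.28 without, and 12.81 on the array that stands apart. The log2 differences were 0.22 (adjusted p = 0.000875) in MR knockout and 0.28 (adjusted p = 0.000899) in control cells. The control value was 0.01 with all 8 arrays. The other 4 probe sets of Nfkbia, not all of them called, had differences of 0.26 to 0.64 and of 0.14 to 0.63. Peli2, a ubiquitin ligase that acts on IRAK kinases, rose by 0.42 in MR knockout and by 0.46 in control cells (adjusted p = 0.00326 and 0.00851), and its other probe sets differed by 0.07 and 0.36 in MR knockout and by 0.07 and 0.66 in control cells. Tollip, an inhibitor of IRAK1, rose by 0.13 in control cells (adjusted p = 0.0452) and differed by 0.09 in MR knockout cells (adjusted p = 0.0639). In the fit of 8 arrays the control values were 0.90 for Peli2 and 0.35 for Tollip, and neither was called. Both calls in control cells were lost without either control array with corticosterone (adjusted p of 0.0662 and 0.0717 for Peli2, 0.0678 and 0.218 for Tollip), and that of Tollip also without either MR knockout array with corticosterone (0.104 and 0.103). Without the variance trend the calls of Nfkbia were lost in MR knockout and control cells (adjusted p = 0.147 and 0.161), as were those of Peli2 (0.0685) and Tollip (0.463) in control cells.

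Of 26 other inflammasome genes measured, 3 rose and 5 fell in MR knockout cells, and 2 rose and 4 fell in control cells, with list medians of 0.01 and 0. Pycard, which encodes the adaptor ASC that links NLRP3 to caspase 1, read 12.32 and 12.37 in MR knockout cells with corticosterone, against 12.62 and 12.58 without. In control cells Pycard read 12.36 and 12.31 with corticosterone, against 12.53 without and 11.41 on the array that stands apart. It fell by 0.25 on the log2 scale in MR knockout cells (adjusted p = 0.000675) and by 0.20 in control cells (adjusted p = 0.0137). P2rx7, the ATP-gated channel that triggers NLRP3, fell by 0.35 (adjusted p = 0.000499) and by 0.31 (adjusted p = 0.00492). P2rx4, a related channel, fell by 0.10 (adjusted p = 0.0329) and by 0.14 (adjusted p = 0.017). The other probe sets of Pycard, P2rx7 and P2rx4 also had negative differences in both genotypes on 7 arrays. The call of P2rx4 was lost in both genotypes without any 1 of the 4 arrays with corticosterone, and in MR knockout cells also without untreated replicate 1 (adjusted p of 0.053 to 0.201). Pycard did not pass in control cells (-0.17, adjusted p = 0.0985) once control corticosterone replicate 2 was left out. Without the variance trend all 3 lost their calls, with adjusted p = 0.118 in MR knockout and 0.304 in control cells for Pycard, 0.0706 and 0.177 for P2rx7, and 0.449 and 0.398 for P2rx4. In control cells the direction of all 3 turned with all 8 arrays, to 0.37 for Pycard, 0.48 for P2rx7 and 0.14 for P2rx4. Their fall there thus rests on leaving out 1 array. In MR knockout cells the calls were lost, while the sizes could not change, as the added array is of control cells.

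Ninj1, which carries out the rupture of the plasma membrane late in lytic cell death, rose by 0.23 in MR knockout cells (adjusted p = 0.00058) and by 0.14 in control cells (adjusted p = 0.0362). Card19, which encodes a mitochondrial protein with a caspase recruitment domain, rose by 0.24 (adjusted p = 0.0016) and by 0.34 (adjusted p = 0.000894). In the fit of 8 arrays Ninj1 was at 0.69 and Card19 at 1.39 in control cells. The call of Ninj1 in control cells was lost without any 1 of the 4 arrays with corticosterone (0.12 to 0.17, adjusted p of 0.0581 to 0.196). Without the variance trend the calls of Ninj1 (adjusted p = 0.139 in MR knockout and 0.44 in control cells) and Card19 (0.122 and 0.112) were lost. No gene of the 3 lists was called by limma between genotypes or in the difference in response, against 1.31% of all genes between genotypes with corticosterone, 1.58% without and 0.0165% in the difference in response. At an unadjusted p under 0.05 there were, for the IL-1 family, signalling and inflammasome lists, 1, 1 and 3 genes with corticosterone, 3, 2 and 4 without, and 2, 0 and 2 in the difference in response. With all 8 arrays 0 genes of the lists were called with hormone, with 1, 0 and 0 at an unadjusted p under 0.05 in MR knockout cells and 1, 2 and 2 in control cells. The share of all genes at that unadjusted threshold was not counted in the fit of 8 arrays.

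**Figure D5:**
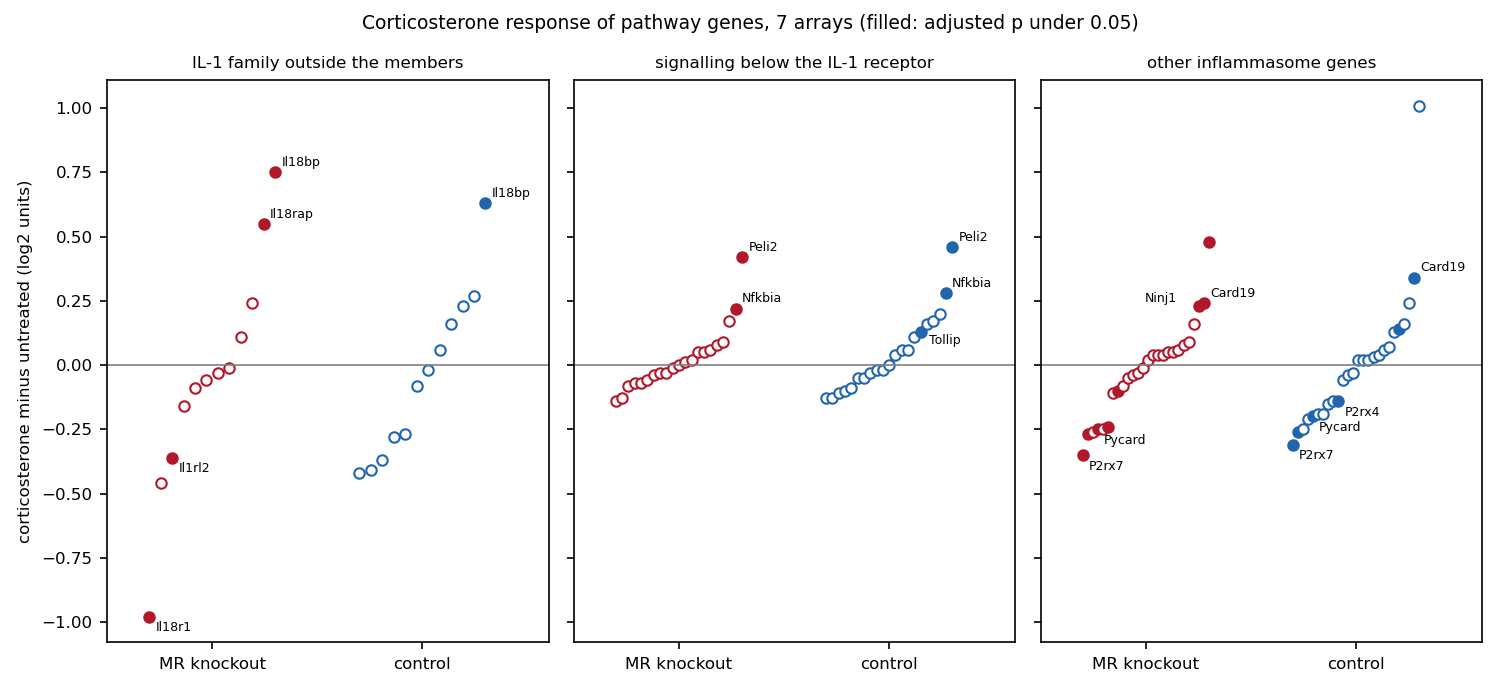
Corticosterone minus untreated in log2 units for the measured genes of 3 lists, in MR knockout and control cells, from limma on 7 arrays, each list sorted by its difference. Filled points were called and the named ones are the first 4 by p; Il18bp at 0.75 and 0.63 leads the rises of the IL-1 family, while most signalling genes lie near 0.

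For 3 of the 10 genes the most alike genes on the array were sought, by the root mean square difference of values centred on the mean of the 7 arrays. For Il1rn, by 1451798_at, they were Psph, Man1a, Inpp5d and Nf2, at 0.028 to 0.0355 log2 units, against a spread of Il1rn itself of 0.175 (SD over the 7 arrays). The corticosterone differences of Inpp5d, which encodes the phosphatase SHIP1, were 0.35 in MR knockout and 0.43 in control cells; the choice by likeness on these arrays fixes such values, so they are a description only. For Il1b they were Lta, Arhgap8, 4930513N10Rik and BC065397, at 0.061 to 0.0952 against a spread of 0.243. For Il1r2 they were Slc16a14, Insyn2b, Cers3 and Cfhr2, at 0.0601 to 0.0942 against a spread of 0.224.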

How the data were processed

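Affymetrix mouse arrays of 8 samples were used, in 4 groups of 2. The authors deposited log2 expression values, 1 per probe set and array, made with RMA in R 2.7 per the submitters' processing notes. RMA removes background, gives all arrays 1 distribution and reduces each set's probes to a single value, so a level is relative to its own array and differences of dim probe sets are compressed. No detection call was used, and the number of arrays limits the precision.

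Of 45101 probe sets 64 were controls and were left out. In the platform annotation 34945 had 1 gene, 932 had several and 9160 are not named here; symbols were updated by identifier to GRCm38.p6 for 34741. No probe set with several genes fell on the 10 genes. limma 3.58.1 in R 4.3.3 was fitted to all 45037 remaining probe sets with 1 coefficient per group and a variance trend on the level (3 residual degrees of freedom with 7 arrays, 4 with 8). It gave 5 comparisons: corticosterone in each genotype, genotype with and without hormone, and the difference in response. The hormone comparisons share arrays with the genotype comparisons. SE and 95% intervals are from this fit. Simulated data tested only its estimates and calls for corticosterone in MR knockout cells. The intervals, and the comparisons that use the single untreated control array, were not tested in this way.

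The members, gene lists and tests were chosen with earlier results of these data known. All member probe sets are named; from each pathway list up to 4 called genes with the smallest p per comparison, and for Il1b, Il1rn and Il1r2 the 4 most alike genes. Other called comparisons of those genes are given beside them. Of 156 list genes 138 had a named probe set. Replicate numbers were checked for pairing: deviations of same-numbered arrays correlated at -0.229 to 0.318 between groups, so no block was used. Promoter sequences are RefSeq's, of GRCm38.p6. Alternatives were 8 arrays without and with array weights, leaving out each array, no variance trend, 1 probe set per gene, the brighter probe sets, renewed quantile normalization, a replicate block and fits of only the groups compared.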

Additional observations from a re-analysis of the deposited data

How the results depend on the processing

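The count of 4 member probe sets called with corticosterone was 0 in both genotypes with all 8 arrays, 4 in MR knockout and 0 in control cells with array weights, and 2 genes in each with 1 probe set per gene. Leaving out 1 array gave 4 to 6 in MR knockout and 4 to 11 in control cells. Between genotypes it gave 0 to 0 with corticosterone, 0 to 10 without, and 0 to 10 for the difference in response. The 6 in MR knockout cells arose without MR knockout untreated replicate 1. The 11, 10 and 10 arose without control untreated replicate 1, where replicate 2 stands in its place; the other single arrays gave at most 4 in control cells and 0 in the untreated genotype comparison and the difference in response. With the replicate block the member counts were 4, 4, 0, 0 and 0 in the order used here.

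Over all probe sets 4118 were called with hormone in MR knockout cells, 3057 in control cells, 358 between genotypes with corticosterone, 440 without, and 4 in response. All 8 arrays gave 26, 28, 0, 0 and 0. Array weights gave 2666, 10, 0 without hormone and 0 in response. No variance trend gave 1688, 864, 100, 64 and 0. With 1 probe set per gene 2502 and 1979 were called with hormone. The replicate block gave 229 between untreated genotypes. A fit of only the groups compared gave 553 with corticosterone and 101 without. Leaving out 1 array gave 2203 to 4752, 1551 to 26400, 136 to 549, 218 to 26185 and 2 to 23378.

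The alternatives for the lists were added after seeing the data. All 8 arrays called 0 genes of the IL-1 family, signalling and inflammasome lists in both genotypes. Array weights called 4 inflammasome genes in MR knockout cells and 0 genes of each list in control cells. No variance trend called 2, 1 and 0 in MR knockout cells, and 0 signalling and 0 inflammasome genes in control cells. The brighter probe sets gave 2 family and 4 signalling genes in MR knockout and 2 family genes in control cells, and 1 probe set per gene gave 2 family genes in control cells. Leaving out 1 array gave 2 to 4, 2 to 2 and 5 to 7 in MR knockout cells, and 1 to 5, 1 to 17 and 2 to 22 in control cells.

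The replaced untreated array also turned directions, in 13 values of member probe sets. The ranges that follow are over all alternatives, the replacement among them. Corticosterone differences in control cells lay between -0.35 and 0.43 for Il1a, -0.12 and 0.59 for Casp1, -0.03 and 1.23 for Nlrp3, and -0.18 and 0.42 for Casp4. Untreated genotype differences lay between -0.29 and 0.45 for Il1a, -0.23 and 0.66 for Il1rap (1421844_at), -0.49 and 1.45 for Il1rap (1449585_at), -0.20 and 0.51 for Casp1, and -0.18 and 0.51 for Casp4. Differences in response lay between -0.79 and 0.12 for Il1rap (1421844_at), -1.30 and 0.64 for 1449585_at, -0.60 and 0.12 for Casp1, and -0.52 and 0.17 for Casp4. Among list genes in control cells the ranges were -0.44 to 0.82 for Il18r1, -0.33 to 0.65 for Il1rl2, -0.26 to 0.29 for Nfkbia, -0.14 to 0.43 for P2rx4, -0.36 to 1.28 for P2rx7 and -0.23 to 0.93 for Pycard. All 8 arrays, with or without weights, gave 0.14, 0.48 and 0.37 for P2rx4, P2rx7 and Pycard. The cause was not tested. The rises of Il1rn, by each of its probe sets, and of Il18 were called in every fit that left out 1 array. Those of Il1rn probe set 1451798_at were lost without the variance trend. Quantile normalization done again changed no count by over 1.5 times. With 2 arrays a group, small differences of dim probe sets such as Il1b and Il1r2 could not be resolved.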
